A study of Arabidopsis thaliana with 13 samples.

Results

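D-type cyclins (CYCD) are the regulatory partners of cyclin-dependent kinases (CDK) that commit plant cells to a new division cycle. They bind an A-type CDK, and the complex phosphorylates the retinoblastoma homologue RBR1, which releases E2F transcription factors to switch on genes of DNA replication. KRP and SIAMESE-related proteins inhibit the complex. In the root, the quiescent centre (QC) is known to divide slowly amid the stem cells around it. The QC transcription factor WOX5 has been described as a repressor of CYCD3;3, and the GRAS transcription factors SHR and SCR as activators of CYCD6;1 in the formative divisions that make cortex and endodermis.

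The 10 genes described here are the annotated D-type cyclins CYCD1;1 (AT1G70210), CYCD2;1 (AT2G22490), CYCD3;1 (AT4G34160), CYCD3;2 (AT5G67260), CYCD3;3 (AT3G50070), CYCD4;1 (AT5G65420), CYCD4;2 (AT5G10440), CYCD5;1 (AT4G37630), CYCD6;1 (AT4G03270) and CYCD7;1 (AT5G02110), chosen by name from a table of 33560 genes. Their transcripts were measured by RNA-seq in Arabidopsis thaliana Col-0 root cells that were protoplasted 5 days after germination and sorted by a fluorescent reporter. QC-marker cells carried WOX5::GFP, in the wild type (n = 3) and in the wox5-1 mutant (n = 4). CEI-marker cells carried CYCD6::GUS-GFP, again in the wild type (n = 3) and in wox5-1 (n = 3). Each gate follows the activity of a promoter. The mutant QC-marker cells were thus selected by the promoter of the mutated gene, and all CEI-marker cells by the promoter of a member of the family.

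Levels are given as deposited by the authors, in FPKM, which counts fragments relative to transcript length and to the M (mega) fragments mapped in the library, so they can be compared between genes. Depth, estimated from the steps between low values, was 5.7 to 8.1 M fragments in the 3 libraries of wild-type QC-marker cells and 18.7 to 38.9 M in the other 10. Genotype and depth therefore cannot be told apart in QC-marker cells. In QC-marker cells WOX5 gave 255, 262 and 163 FPKM in wild-type libraries and between 0 and 0.114 FPKM in mutant ones. The summed level of 10 markers of the QC and niche includes WOX5 itself. It was 949 to 1011 FPKM in wild-type and 350 to 572 FPKM in mutant QC-marker libraries, and 58.0 to 235 FPKM in all CEI-marker libraries. Libraries are called by their group and their number in the table. In wild-type QC-marker library 2, 19783 genes were at 0, against 5385 to 12971 in each of the others. Wild-type CEI-marker library 4 held 2371 summed FPKM of 5 root cap markers (10.4 to 254 in the other 5 CEI-marker libraries). Mutant CEI-marker library 1 held 11584 summed FPKM of 5 green tissue markers (5.42 to 40.3 in the other 5). Many of the results that rest on these 3 libraries are given with and without them. In bulk samples, fewer cells of a type and less RNA per cell cannot be told apart.

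CYCD3;2, CYCD2;1 and CYCD5;1 were at 1 FPKM or more in all 13 libraries. Over the 13, the medians of the first pair were the highest of the family, 22.1 and 18.9 FPKM, and CYCD3;3 followed at 17.6 FPKM. CYCD5;1, linked to variation in endoreduplication, had a median of 9.71 FPKM. The other 6 had medians of 5.48 FPKM or less. The lowest was CYCD7;1, known from the last division of the stomatal lineage, which reached 1 FPKM in 3 libraries and was listed at 0 in 4. All 10 passed the filter of at least 1 FPKM in at least 3 libraries and were tested, this last one through 1 library in each of 3 groups.

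**Figure D1:**
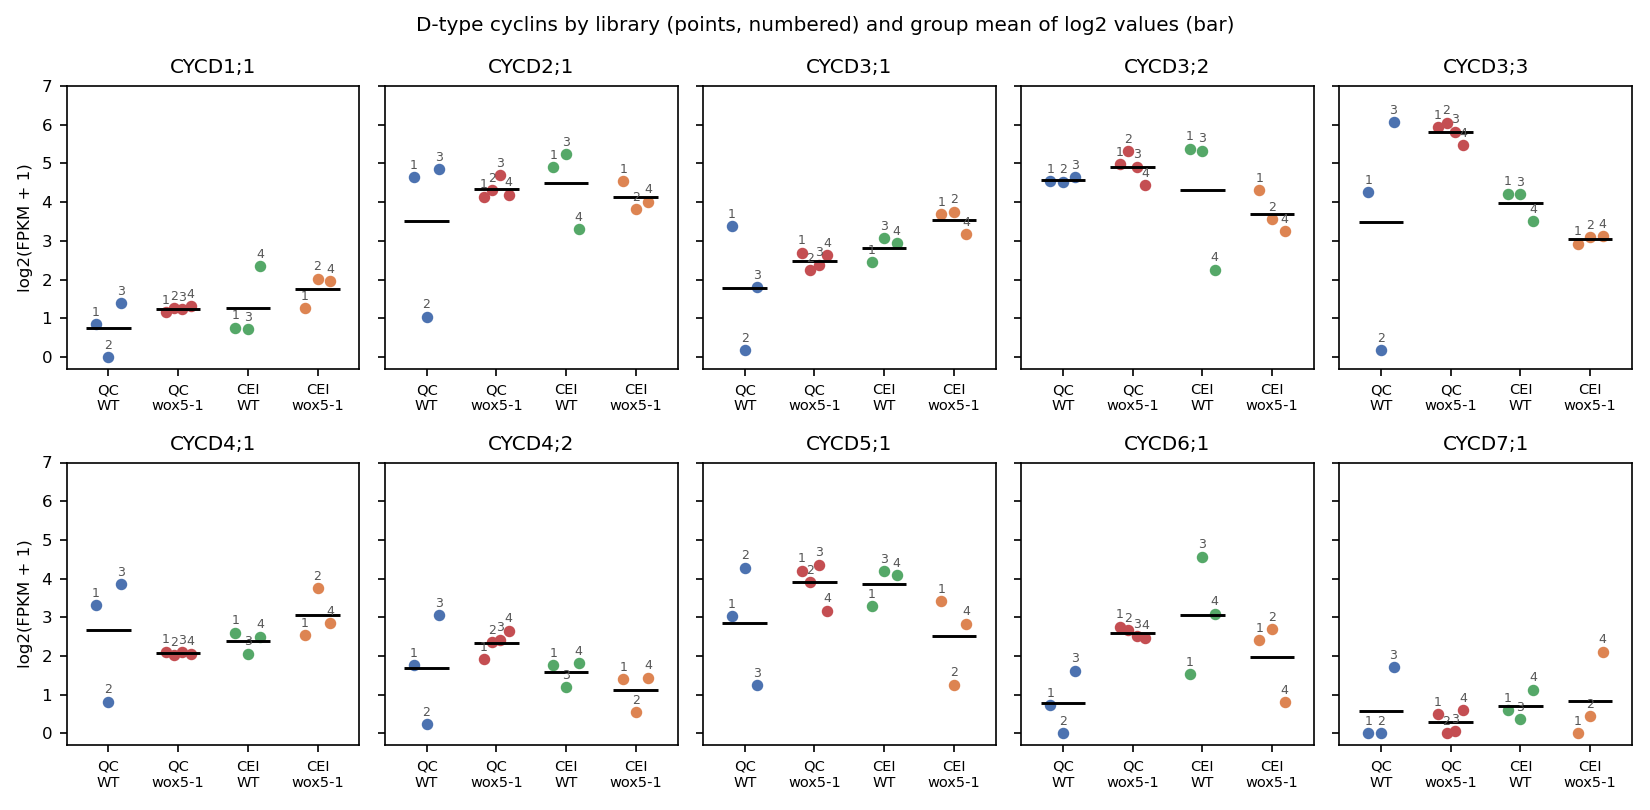
Level of each D-type cyclin, as log2(FPKM + 1), in the 13 libraries (points, numbered as in the table) of the 4 groups, with bars at the group means. The 4 mutant QC-marker libraries lie close together in most panels, whereas wild-type QC-marker library 2 is far below its group in several.

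Wild-type QC-marker library 2 weighed on many of the values below. It listed 3 members at 0, the reporter cyclin CYCD6;1 among them, and its 0.131 FPKM of CYCD3;3 and 0.126 FPKM of CYCD3;1 correspond to about 0.878 and 1.16 fragments at the estimated depth. Its 22.0 FPKM of CYCD3;2 and 18.5 FPKM of CYCD5;1 correspond to about 151 and 160 fragments. The library thus held 2 of the 10 cyclins in quantity and the other 8 at no more than 8.81 fragments each. A listed 0 of the reporter cyclin there allows up to 0.527 FPKM, the value of 3 fragments. Such limits cover counting error only, and reads without molecular identifiers are not independent molecules.

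The QC-marker cells of the genotypes were compared to ask how D-type cyclins differed without WOX5. The cyclins named above as targets of WOX5 and of SHR and SCR had the largest differences with all libraries, both toward higher levels in the mutant. Without wild-type library 2 the largest were those of CYCD5;1 (1.77) and CYCD4;1 (-1.51). None of the 10 passed the test in either direction (limma on log2(FPKM + 1), Benjamini-Hochberg adjusted p under 0.05 over 21574 genes), where 3.43% of all tested genes did. At an unadjusted p under 0.05 the count was 2 of 10, against 19.7% of all tested genes.

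CYCD6;1 drives the formative division of ground tissue stem cell daughters. Wild-type QC-marker libraries 1, 2 and 3 gave 0.658, 0 and 2.07 FPKM, and the mutant libraries gave 5.75, 5.39, 4.68 and 4.56 FPKM. Every mutant library was above every wild-type one. The wild-type values correspond to about 4.66, 0 and 16.7 fragments and the mutant ones to about 116 to 190. The log2 difference was 1.82 (SE 0.71, 95% confidence interval 0.31 to 3.33, adjusted p = 0.171), and 1.43 when wild-type library 2 was left out (adjusted p = 0.353). No other member had groups that did not overlap in this comparison. Among all tested genes, 17.8% did not overlap toward higher and 5.82% toward lower values in the mutant.

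CYCD3;3 belongs to a trio of cytokinin-responsive cyclins that keep cells in mitotic cycles. The wild type gave 18.1, 0.131 and 65.7 FPKM and the mutant 60.04, 65.3, 55.6 and 43.3 FPKM. All 4 mutant libraries lay within the wild-type range, whose top was library 3. The log2 difference of 2.32 (SE 0.93, 95% confidence interval 0.34 to 4.30, adjusted p = 0.183) fell to 0.66 when wild-type library 2 was left out (adjusted p = 0.487). With wild-type library 3 left out instead it was 3.603 and passed (adjusted p = 0.0331), at a background of 3.20% of genes called. The size of the difference depended on which wild-type libraries were used.

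The other members of the trio differed less. CYCD3;2 was the steadiest cyclin of the wild type, with values of 22.1, 22.0 and 23.9 FPKM, and gave 30.6, 38.7, 29.2 and 20.7 FPKM in the mutant. The groups overlapped, with a log2 difference of 0.35 (95% confidence interval -0.99 to 1.68). CYCD3;1 gave 9.41, 0.126 and 2.47 FPKM in the wild type and 3.71 to 5.48 FPKM in the mutant, all within the wild-type range (log2 difference 0.70, and -0.10 without wild-type library 2).

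CYCD4;1 acts in the pericycle and in lateral root formation. Its wild-type QC-marker libraries gave 8.98, 0.764 and 13.4 FPKM and the mutant ones 3.32, 3.09, 3.28 and 3.17 FPKM. The mutant lay below wild-type libraries 1 and 3 and above library 2. This gave a log2 difference of -0.59 (SE 0.65, adjusted p = 0.639). It was -1.51 without wild-type library 2 (adjusted p = 0.0721) and 0.0072 without library 3. CYCD5;1 gave 7.21, 18.5 and 1.37 FPKM in the wild type and 7.99 to 19.6 FPKM in the mutant, with a log2 difference of 1.06 (SE 0.69, adjusted p = 0.414), and of 1.77 without wild-type library 2 (adjusted p = 0.17). It is the one member whose highest wild-type value came from library 2.

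CYCD2;1, implicated in lateral root initiation, gave 24.04, 1.05 and 27.8 FPKM in the wild type and 16.7 to 24.8 FPKM in the mutant. The log2 difference was 0.82 (95% confidence interval -0.80 to 2.45), and it turned to -0.41 without wild-type library 2. CYCD4;2, a cyclin of the stomatal lineage, gave 2.38, 0.185 and 7.31 FPKM and 2.79 to 5.29 FPKM (log2 difference 0.65, and -0.068 without library 2). For CYCD1;1, which is active at germination, the values were 0.796, 0 and 1.63 FPKM and 1.24 to 1.47 FPKM (0.49, and 0.12 without library 2). The stomatal cyclin with the lowest median gave 0, 0 and 2.26 FPKM and 0 to 0.514 FPKM. All 4 overlapped between the genotypes.

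As a family, 8 of the 10 had a positive log2 difference, where 13741 of 21574 tested genes did, and 3 of the 8 turned negative under quantile normalization and again without wild-type library 2. The median of the 10 was 0.68, against 0.319 over all tested genes. Without library 2 it was 0.027, against 0.12 over all tested genes, and 5 of the 10 were positive. Scaling by median of ratios moved the all-gene median to 0.187, and quantile normalization moved it to -0.070. Markers of other cells moved between the same groups. Of 7 epidermis and root hair markers, 6 had a positive difference, and WER (-1.44) was lower in all 4 mutant libraries. The sum of the 7 was 159 to 970 FPKM in the wild type and 997 to 1684 FPKM in the mutant, with none of the 7 at 0 in a library. Of 5 root cap markers, 2 had a positive difference, FEZ (1.799) and SMB (1.09), both with overlap. BRN1 (-2.48) and BRN2 (-2.86) were lower in all 4 mutant libraries, and CEL5 (-2.15) overlapped. FEZ had the smallest adjusted p of the 5 in limma's test (0.185). The sums of the 5 were 154, 990 and 670 FPKM in the wild type and 201 to 256 FPKM in the mutant, again with none at 0. The part of either list in the differences of the cyclins was not tested.

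**Figure D2:**
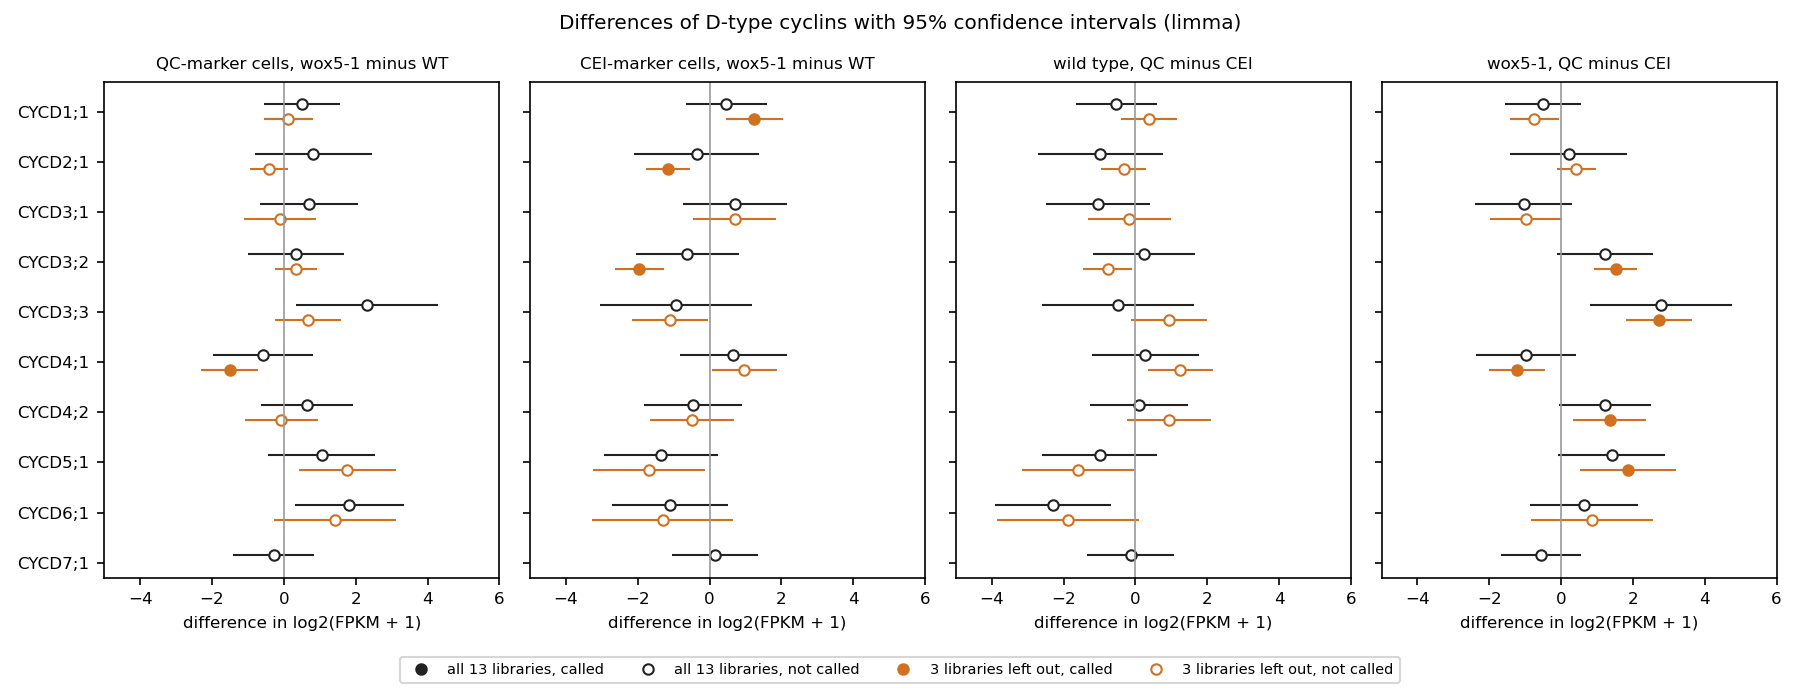
Differences of the D-type cyclins in log2(FPKM + 1) with 95% confidence intervals from limma, in both genotype and both population comparisons, with all 13 libraries (black) and with the 3 libraries that stood apart left out (orange), where filled points passed the test. No black point is filled, and the member with the lowest median has no orange point because it did not pass the filter there.

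In CEI-marker cells the same genotype comparison includes the gene of the reporter. None of the 10 cyclins passed limma's test in either direction, at a background of 0.0278% of all tested genes, and at an unadjusted p under 0.05 the count was 0 of 10, against 8.04%. The largest differences were toward lower levels in the mutant, in the pair described next.

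CYCD6;1 gave 1.90, 22.7 and 7.55 FPKM in the wild type (libraries 1, 3 and 4) and 4.33, 5.47 and 0.748 FPKM in the mutant (libraries 1, 2 and 4). Both genotypes spread widely and overlapped. The log2 difference was -1.10 (SE 0.76, 95% confidence interval -2.71 to 0.52, adjusted p = 0.711). It was -1.86 without wild-type library 1 and -0.35 without wild-type library 3. The gene of the reporter thus ranged from about 22.1 to 759 fragments among cells sorted by its promoter, and 3 of the 6 libraries had less of it than every mutant QC-marker library.

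CYCD5;1 gave 8.72, 17.3 and 16.0 FPKM in the wild type and 9.71, 1.39 and 6.16 FPKM in the mutant. Wild-type library 1 overlapped the mutant group. This gave a log2 difference of -1.35 (SE 0.74, adjusted p = 0.646), and of -0.72 without mutant library 2.

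The genotypes did not overlap for 2 members. CYCD3;3 gave 17.6, 17.5 and 10.4 FPKM in the wild type and 6.62, 7.54 and 7.68 FPKM in the mutant, lower in all 3 libraries, a log2 difference of -0.93 (SE 0.99, 95% confidence interval -3.05 to 1.19, adjusted p = 0.814). CYCD3;1 gave 4.45, 7.38 and 6.64 FPKM in the wild type and 11.9, 12.4 and 7.96 FPKM in the mutant, higher in all 3 libraries. The log2 difference was 0.72 (SE 0.68, adjusted p = 0.788). Across all tested genes, 7.19% did not overlap toward higher and 3.81% toward lower values in the mutant.

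The most abundant pair set wild-type library 4 apart from libraries 1 and 3. CYCD3;2 gave 40.6, 39.2 and 3.76 FPKM in libraries 1, 3 and 4 of the wild type and 18.8, 10.8 and 8.48 FPKM in the mutant. CYCD2;1 gave 29.0, 36.8 and 8.87 FPKM in the wild type and 22.4, 13.1 and 15.1 FPKM in the mutant. For both genes all 3 mutant libraries lay between wild-type library 4 and the others. CYCD1;1 went the other way, with 0.692, 0.647 and 4.07 FPKM in the wild type and 1.39, 3.05 and 2.87 FPKM in the mutant. Library 4 is the one with the root cap markers above, all 5 of them above 0 in every library. Markers of epidermis and root hair were at 134, 2001 and 316 summed FPKM in the wild type and at 1279 to 2013 FPKM in the mutant, with 7 of 7 higher on average in the mutant. The part of these cells in the values was not tested.

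With the 3 libraries that stood apart left out, an alternative chosen after seeing the data, each CEI-marker group had 2 libraries and 3 cyclins passed limma's test. CYCD3;2 was lower in the mutant (log2 difference -1.95, SE 0.30, adjusted p = 0.00282), as was CYCD2;1 (-1.16, SE 0.28, adjusted p = 0.017). CYCD1;1 was higher (1.25, SE 0.35, adjusted p = 0.0318). Of all tested genes, 14.6% were then called lower and 7.30% higher. For CYCD3;2 and CYCD2;1 the CEI-marker libraries left out were the lowest of the wild type and the highest of the mutant. For CYCD1;1 they were the highest of the wild type and the lowest of the mutant. The calls thus depended on which libraries were left out. In QC-marker cells the same alternative called CYCD4;1 alone, lower in the mutant (-1.51, SE 0.35, adjusted p = 0.0296), at a background of 2.33% called lower.

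The remaining 3 members overlapped in CEI-marker cells. CYCD4;1 gave 5.09, 3.16 and 4.64 FPKM in the wild type and 4.82, 12.6 and 6.17 FPKM in the mutant. Its paralog gave 2.38, 1.28 and 2.52 FPKM and 1.64, 0.455 and 1.71 FPKM. The stomatal cyclin of lowest median gave 0.286 to 1.19 FPKM and 0, 0.356 and 3.31 FPKM. Of the 10 cyclins, 4 had a positive and 6 a negative log2 difference, with a median of -0.41 against 0.0796 over all tested genes. Without wild-type library 4, 6 of the 9 members still tested were negative, and their median was -0.95 against 0.099 over all tested genes.

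Between the populations in the wild type, none of the 10 cyclins passed limma's test, at a background of 0.357%. At an unadjusted p under 0.05 the count was 1 of 10, against 12.1% of all tested genes. That one was CYCD6;1, with a log2 difference of -2.29 for QC-marker minus CEI-marker cells (SE 0.76, 95% confidence interval -3.90 to -0.67, adjusted p = 0.267). CEI-marker library 1, at 1.90 FPKM, was below QC-marker library 3, at 2.07 FPKM. Leaving out single libraries moved the difference between -3.05 and -1.54. The populations overlapped for all 10 members, where 5.98% of all tested genes did not overlap toward higher and 4.07% toward lower values in QC-marker cells. With the 3 libraries left out, 0 members and 3.35% of all tested genes were called by limma.

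Between the populations in wox5-1, neither group holds the sparse wild-type library. CYCD3;3 ranged from 43.3 to 65.3 FPKM in QC-marker and from 6.62 to 7.68 FPKM in CEI-marker cells. Its log2 difference was 2.77 (SE 0.93, 95% confidence interval 0.79 to 4.75) and missed the threshold when all 13 libraries shared 1 estimate of the spread (adjusted p = 0.109). When wild-type QC-marker library 2 was left out, the difference was the same, the SE was 0.38, and the gene passed limma's test (adjusted p = 0.00192, at a background of 11.7%). When wild-type QC-marker library 3 was left out it passed as well (adjusted p = 0.0388, at a background of 4.97%). With only the 7 mutant libraries in the fit the SE was 0.21 and the adjusted p = 0.000167.

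The test on all 13 libraries called none of the 10 cyclins, at a background of 4.31%, and 1 had an unadjusted p under 0.05, against 20.9% of all tested genes. The populations did not overlap for 5 members. CYCD3;2 (20.7 to 38.7 against 8.48 to 18.8 FPKM) and CYCD4;2 (2.79 to 5.29 against 0.455 to 1.71 FPKM) were, like CYCD3;3, higher in every QC-marker library. CYCD3;1 (3.71 to 5.48 against 7.96 to 12.4 FPKM) and CYCD4;1 (3.09 to 3.32 against 4.82 to 12.6 FPKM) were lower in every one. By these ranges CYCD3;1 lay on the other side from CYCD3;2 and CYCD3;3. The test on all 13 libraries called none of the CYCD3 trio (adjusted p = 0.365, 0.285 and 0.109). Of all tested genes, 26.5% did not overlap toward higher and 9.72% toward lower values in QC-marker cells. Other settings called more members. A pseudocount of 5 and quantile normalization each called CYCD3;3 alone, at backgrounds of 5.55% and 5.44%. With the mutant libraries alone, the trio and CYCD4;2 passed, at a background of 26.8%, and array weights called 5 members, at a background of 34.8%. With the 3 libraries left out 4 members were called higher, against 23.2% of all tested genes, and 1 lower, against 8.67%.

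CYCD6;1 ranged from 4.56 to 5.75 FPKM in mutant QC-marker and from 0.748 to 5.47 FPKM in mutant CEI-marker cells. The populations overlapped, and the log2 difference of 0.63 had a 95% confidence interval of -0.88 to 2.14. In the mutant, its level did not separate the cells sorted by its own promoter from those sorted by the WOX5 promoter.

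Ordered by group mean, CYCD6;1 was highest in wild-type CEI-marker cells (10.7 FPKM), followed by mutant QC-marker (5.09 FPKM) and mutant CEI-marker cells (3.51 FPKM), and lowest in wild-type QC-marker cells (0.908 FPKM). Each group overlapped the next. CYCD3;3 was highest in mutant QC-marker cells (56.1 ± 9.36 FPKM, SD, n = 4), followed by wild-type QC-marker, wild-type CEI-marker (15.2 ± 4.13 FPKM, SD, n = 3) and mutant CEI-marker cells (7.28 ± 0.579 FPKM, SD, n = 3). Only the last of these steps was between groups that did not overlap. CYCD3;1 was highest in mutant CEI-marker cells (10.8 ± 2.45 FPKM, SD, n = 3), which did not overlap the wild-type CEI-marker cells next in order (6.16 ± 1.53 FPKM, SD, n = 3). The family, like all tested genes, varied least in mutant QC-marker cells, where the median SD of log2(FPKM + 1) was 0.25 over the 10 members and 0.26 over all tested genes. It was 0.45 and 0.68 in wild-type CEI-marker cells, 0.53 and 0.55 in mutant CEI-marker cells, and 1.47 and 0.92 in wild-type QC-marker cells.

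An interaction term tested whether the genotype effect differed between the populations. None of the 10 cyclins passed limma's test, at a background of 0.0232%, and 3 had an unadjusted p under 0.05, against 11.1% of all tested genes. For QC-marker minus CEI-marker cells, the interaction was 3.25 for CYCD3;3 (SE 1.36, adjusted p = 0.41), 2.92 for CYCD6;1 (SE 1.03, adjusted p = 0.355) and 2.40 for CYCD5;1 (SE 1.02, adjusted p = 0.411). Without wild-type QC-marker library 2 the interaction of CYCD3;3 was 1.59, and without library 3 it was 4.54. Those of the other pair ran from 2.17 to 3.68 and from 1.599 to 3.12 when single libraries were left out. With the 3 libraries left out 3 members passed, at a background of 14.3%. Of the 3 named here only CYCD5;1 was among them.

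The make-up of the family can be read within a library, where depth is shared. Summed over the 10 cyclins, mutant QC-marker libraries held 110 to 155 FPKM and mutant CEI-marker libraries 60.2 to 81.6 FPKM. The sums of wild-type QC-marker libraries were 93.7, 42.8 and 148 FPKM and those of wild-type CEI-marker libraries 111, 146 and 65.6 FPKM. CYCD3;3 made up 40.3% ± 2.06 of the sum in mutant QC-marker cells (SD, n = 4), 14.6% ± 2.26 in wild-type CEI-marker cells (SD, n = 3) and 10.7% ± 2.37 in mutant CEI-marker cells (SD, n = 3). Wild-type QC-marker libraries 1, 2 and 3 gave 19.3%, 0.305% and 44.4%, so only library 3 was near the mutant range. CYCD3;1 held 15.4% ± 2.76 in mutant CEI-marker cells (SD, n = 3) and between 0.296% and 10.1% in each of the other 10 libraries. The shares were not tested.

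**Figure D3:**
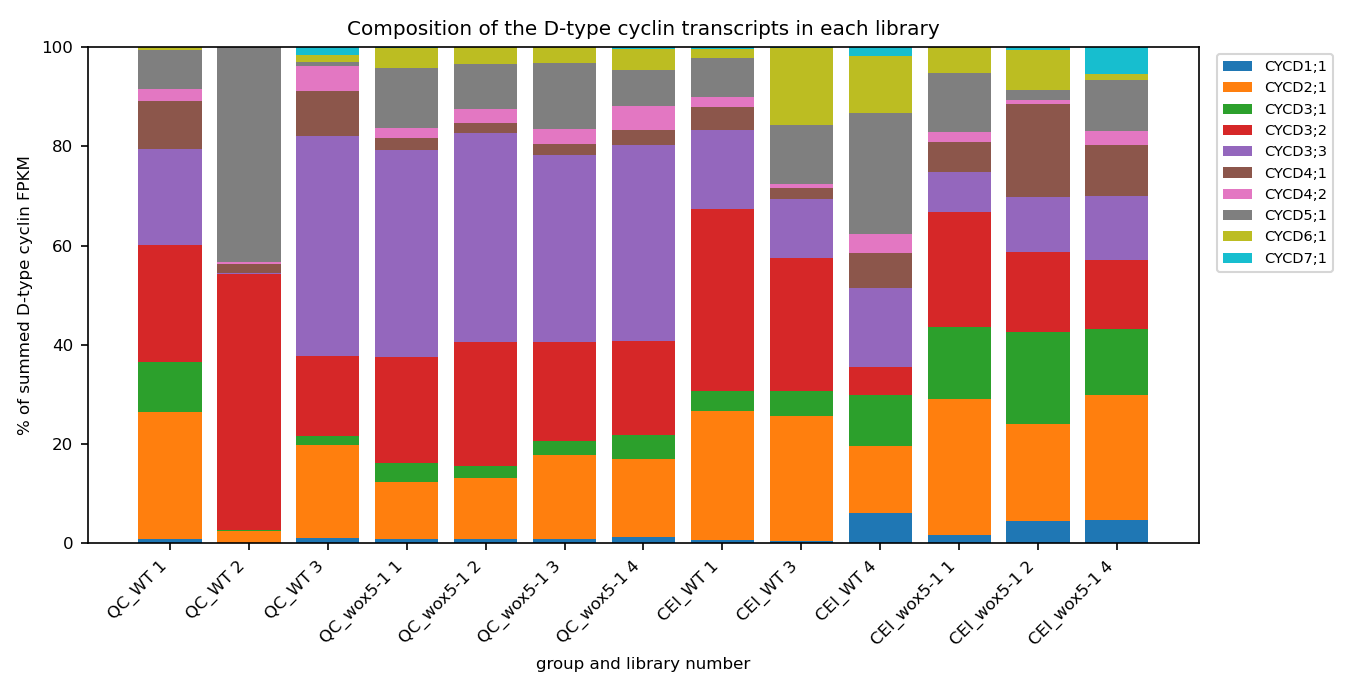
Share of each D-type cyclin in the summed FPKM of the 10, as % in stacked bars, for the 13 libraries by group and library number. CYCD3;3 holds 37.8% to 42.2% in the 4 mutant QC-marker libraries and 8.11% to 12.8% in the 3 mutant CEI-marker libraries.

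The partners, inhibitors and targets of D-type cyclins were followed as 5 lists with 52 genes, all tested. With all 13 libraries no gene of the 5 lists passed limma's test in a genotype comparison. With the 3 libraries that stood apart left out, 4 of the 52 passed in QC-marker cells, where 6.53% of all tested genes were called higher and 2.33% lower, and 23 in CEI-marker cells, where 7.30% and 14.6% were. The first list holds 8 genes of CDKs, CDK-activating kinases and cyclin H. Of these, 3 had a positive difference in QC-marker cells and 1 in CEI-marker cells (medians -0.23 and -0.41). CDKA;1, the partner of D-type cyclins, gave 39.5, 25.4 and 48.4 FPKM in QC-marker cells of the wild type and 38.7, 41.2, 46.5 and 31.9 FPKM in the mutant, with overlap. The CDKB1 kinase AT3G54180, which peaks toward mitosis, gave 23.8, 46.1 and 23.97 FPKM in the wild type and 17.05, 13.3, 18.01 and 14.8 FPKM in the mutant, lower in all 4 libraries (log2 difference -0.89, adjusted p = 0.404). The second CDKB1 gene had a log2 difference of -1.06 (adjusted p = 0.271) and the CDK-activating cyclin H one of -0.57, and both overlapped. Without wild-type library 2 these 3 values were -0.58, -0.64 and 0.11. In CEI-marker cells the CDK-activating kinase AT1G18040 had the smallest adjusted p of the list (log2 difference -0.92, adjusted p = 0.728), with overlap. With the 3 libraries left out 5 of the 8 passed limma's test there, all lower in the mutant, against 14.6%. AT1G18040 was among them (-1.69, adjusted p = 0.0147). For it the CEI-marker libraries left out were the lowest of the wild type and the highest of the mutant.

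CDK inhibitors had the highest median of the 5 lists in QC-marker cells. Of 12, 11 had a positive difference (median 1.25), 5 did not overlap toward higher values, against 17.8% of all genes, and 5 had an unadjusted p under 0.05, against 19.7%. The SIAMESE-related gene SMR4 gave 4.91, 0 and 7.89 FPKM in the wild type and 19.3, 16.4, 19.3 and 28.2 FPKM in the mutant, above in all 4 (log2 difference 2.51, SE 0.69, adjusted p = 0.0605). SMR5 was listed at 0 in all 3 wild-type libraries and gave 6.76, 11.2, 2.03 and 2.69 FPKM in the mutant (adjusted p = 0.123). Estimated depth was 5.7 to 8.1 M fragments in these wild-type libraries and 24.9 to 38.9 M in the mutant ones. The level that a listed 0 allows was not estimated for SMR5. AT1G08180 of the same group gave 1.39, 0 and 3.63 FPKM and 5.61 to 7.29 FPKM (adjusted p = 0.0845). In wild-type library 2, 7 of the 12 inhibitors were listed at 0. Without that library 9 of the 12 were positive, the median was 0.49 against 0.12 over all tested genes, and SMR4 was at 1.56 and AT1G08180 at 1.23. Leaving out the 3 libraries, KRP6 (1.65, adjusted p = 0.0198), SMR4 (adjusted p = 0.0228) and SMR5 (adjusted p = 0.0287) passed limma's test, all higher in the mutant. KRP6 gave 7.26, 45.2 and 6.57 FPKM in the wild type and 20.1 to 30.3 FPKM in the mutant, so the library left out was above every mutant one. With all 13 libraries its log2 difference was 0.80 (adjusted p = 0.485), with overlap. In CEI-marker cells 7 of 12 were positive (median 0.13). SIM, the founding member of the SIAMESE group, gave 32.5, 37.9 and 59.2 FPKM in the wild type and 80.7, 144 and 65.8 FPKM in the mutant, higher in all 3 (log2 difference 1.11, SE 0.45, adjusted p = 0.592). AT1G08180 was also higher in all 3 (log2 difference 1.04), and KRP1 (0.93) overlapped. With the 3 libraries left out, 2 of the 12 passed limma's test in CEI-marker cells. SIM was higher in the mutant (1.44, adjusted p = 0.0424), against 7.30% of all tested genes. SMR5 was lower there (-2.89, adjusted p = 0.0148), against 14.6%, and with all 13 libraries it was at -1.02 (adjusted p = 0.777), with overlap. For SMR5 the CEI-marker libraries left out were the lowest of the wild type and the highest of the mutant.

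Of RBR1 and 8 E2F, DP and DEL factors, 7 of 9 had a positive difference in QC-marker cells and 1 of 9 in CEI-marker cells (medians 0.47 and -0.59). Without wild-type library 2 the count in QC-marker cells was 5 of 9 (median 0.021). DPB, a partner of E2F factors, gave 16.4, 0.125 and 13.4 FPKM in the wild type and 11.5 to 21.1 FPKM in the mutant QC-marker libraries (log2 difference 1.32, adjusted p = 0.338). E2FA gave 10.8, 0 and 10.4 FPKM and 9.13 to 10.2 FPKM (log2 difference 1.04), so wild-type library 2 alone was low for both, and without it the differences were 0.045 and -0.14. DEL1, an atypical E2F, gave 10.8, 37.2 and 11.4 FPKM and 6.64 to 9.71 FPKM, lower in all 4 mutant libraries (log2 difference -1.02, adjusted p = 0.373, and -0.46 without library 2). In CEI-marker cells DEL1 (-1.22), DEL2 (-0.69) and RBR1 (-0.60) had the smallest adjusted p and overlapped. With the 3 libraries left out 3 of the 9 passed limma's test there, against 14.6% of all tested genes called lower. These were DPA (-1.45, adjusted p = 0.0149), DEL1 (-1.84, adjusted p = 0.048) and DEL2 (-1.73, adjusted p = 0.0262). Wild-type library 4, which was left out, was the lowest of its group for each of them.

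Among 16 genes that E2F factors control or that serve in S phase, 8 had a positive difference in QC-marker cells (median 0.037). PCNA2, a sliding clamp of DNA polymerase, gave 35.1, 40.3 and 28.9 FPKM in the wild type and 18.3, 12.4, 18.8 and 16.7 FPKM in the mutant, lower in all 4 libraries (log2 difference -1.03, SE 0.42, adjusted p = 0.187). With the 3 libraries left out PCNA2 was at -0.92 and passed limma's test (adjusted p = 0.0479), against 2.33% of all tested genes called lower. MCM5, a subunit of the replicative helicase, gave 16.7, 0.0756 and 17.9 FPKM and 19.6 to 34.0 FPKM, higher in all 4 (log2 difference 1.94, adjusted p = 0.243, and 0.58 without library 2). The median of the 16 was -0.31 without library 2. In CEI-marker cells all 16 had a negative difference (median -0.94), where 9810 of 21574 tested genes did. PCNA2 there gave 46.1, 50.1 and 16.2 FPKM in the wild type and 22.5, 11.8 and 16.4 FPKM in the mutant (adjusted p = 0.617). Wild-type library 4 was within the mutant range. The helicase subunit MCM3 (-1.14) and the ribonucleotide reductase gene TSO2 (-0.99) overlapped too. The summed level of the 16 was 551, 562 and 154 FPKM in the wild type and 359, 70.6 and 223 FPKM in the mutant. Library 4 was again the low one of the wild type, and library 1 was the high one of the mutant. Both are among the 3 libraries left out together. Without wild-type library 4 alone, 15 of 16 were negative (median -1.53). Leaving out the 3 libraries, all 16 were negative (median -1.98) and 10 passed limma's test, against 14.6% of all tested genes called lower. These 10 included PCNA2 (-1.72, adjusted p = 0.00391), MCM3 (-2.23, adjusted p = 0.00501) and TSO2 (-2.03, adjusted p = 0.00885).

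SHR, SCR and 5 factors that work with them include the regulators of the reporter cyclin. SHR gave 5.09, 7.85 and 4.31 FPKM in wild-type CEI-marker cells and 0.570, 3.96 and 0.562 FPKM in the mutant, lower in all 3 libraries (log2 difference -1.52, SE 0.63, adjusted p = 0.594). SCL3 (-1.21) and MGP (-1.37) overlapped. SCR gave 35.1, 107 and 10.05 FPKM in the wild type and 38.8, 22.4 and 11.2 FPKM in the mutant. Of the 6 CEI-marker libraries, wild-type library 3 was the highest for SHR, SCR and CYCD6;1. The other wild-type libraries did not keep this order. Library 1 had more SHR and SCR than library 4 but less CYCD6;1 (1.90 against 7.55 FPKM). In QC-marker cells 3 of the 7 were positive (median -0.051). NUC (log2 difference -1.24, adjusted p = 0.238) and SCL3 (-0.93) were lower in all 4 mutant libraries, and MGP (-1.02) overlapped. Without wild-type library 2, 1 of the 7 was positive (median -0.49, against 0.12 over all tested genes). NUC was then at -1.08, SCL3 at -0.81 and MGP at -0.47. In CEI-marker cells SCR (-1.88), MGP (-2.69) and SCL3 (-2.07) passed limma's test with the 3 libraries left out (adjusted p = 0.0327, 0.00121 and 0.0158). Of all tested genes, 14.6% were called lower there. For each of these genes the CEI-marker libraries left out were the lowest of the wild type and the highest of the mutant. With all 13 libraries SCR was at -0.64 (adjusted p = 0.827), with overlap.

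**Figure D4:**
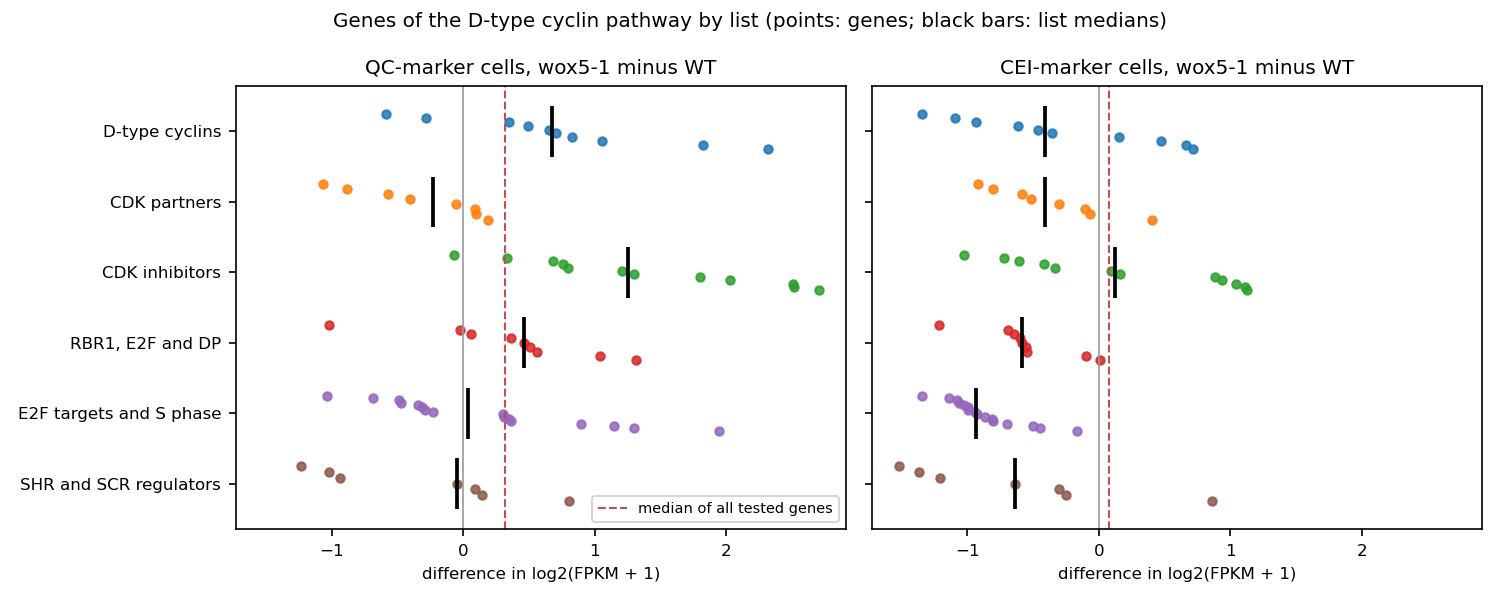
Log2 differences, wox5-1 minus wild type, of the D-type cyclins and of the genes of 5 lists around them in QC-marker and CEI-marker cells (points, genes, with black bars at list medians and a dashed line at the median of all tested genes). All 16 genes of E2F targets and S phase lie below 0 in CEI-marker cells, with a median of -0.94 (15 of 16 without wild-type library 4).

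By their profile over the 13 libraries, the 5 genes with a symbol most like CYCD3;3 were SLP2 (Pearson r of log2(FPKM + 1) 0.980), SYNC3 (0.977), BAM1 (0.968), CAT1 (0.968) and HA11 (0.960). Without the 2 libraries where the cyclin was farthest from its median, r ran from 0.916 to 0.984. Those most like CYCD6;1 were AGL30 (0.858), ULP1B (0.853), NEK5 (0.827), OPT6 (0.802) and RTL1 (0.792), and without the 2 farthest libraries r ran from 0.415 to 0.810. The points share libraries and groups, and these values describe the profiles only.

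Fragments of 4 cyclins may be mixed with those of a neighbour, since it is not stated in the sources used here whether strand was used in counting. CYCD6;1 overlaps AT4G03260 on the other strand, which ranged from 3.73 to 21.9 FPKM over the 13 libraries. In wild-type QC-marker library 2 that neighbour was at 21.7 FPKM while the cyclin was listed at 0. CYCD3;1 overlaps AT4G34150 on the same strand, at 26.1 to 182 FPKM. CYCD1;1 overlaps AT1G70209 on the other strand, which was listed at 0 in 9 libraries and gave 12.6 FPKM in wild-type and 9.27 FPKM in mutant CEI-marker library 4, 16.1 FPKM in wild-type QC-marker library 1 and 3.39 FPKM in mutant QC-marker library 2. In the first of these the cyclin was at its highest, 4.07 FPKM. AT5G67265, on the other strand of CYCD3;2, was at 0 to 3.39 FPKM. The CYCD3 trio and the CYCD4 pair are also close paralogs, whose fragments the counting could have assigned wrongly.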

How the data were processed

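Each of 13 libraries has a column of FPKM values for 33560 genes in 1 table, used as deposited by the authors. Per the submitters' processing notes, Cufflinks was used (version not stated). Aligner, build and annotation: not given in the sources used here, and coordinates are left out. QC-marker columns matched a title by number, and CEI-marker columns matched a group only. All 10 cyclins and all 100 loci of the lists were in the table and in the RefSeq table of TAIR10.1, which supplied names and overlaps. Libraries of a group are biological replicates per the labels. The members and lists were chosen with earlier results of these data known.

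Differences were tested with limma (version 3.58.1 in R 4.3.3, trend option, 2-sided) after taking log2(FPKM + 1), all 13 libraries in 1 fit with 9 residual and 5.28 prior degrees of freedom. Genes with at least 1 FPKM in at least 3 libraries were tested. The log scale understates differences of low genes. The fit was tested on simulated data. Named pathway genes come from the 3 with the smallest adjusted p per list and genotype comparison, of which the text leaves out a few. The A-type kinase, SCR, KRP6, BRN1, BRN2, SMB, FEZ, CEL5 and WER were added after their values were seen.

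Depth came from the steps between low values in genes with 1 transcript of at least 1000 bases. Of the values used, 33.2% to 45.8% were whole numbers of fragments to within 0.1, where chance gives 20%, and the step was chosen to maximise that share. On 4 simulated libraries the largest error was 1.3%, and it may be larger here. Fragments per gene are therefore rough.

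Alternatives were pseudocounts of 0.1 and 5, no filter, a filter at 5 FPKM, median-of-ratios and quantile scaling, only the groups compared, array weights, each library left out and a replicate block. Leaving out 3 libraries together was added after seeing the data.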

Additional observations from a re-analysis of the deposited data

Results flagged for a closer look

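With wild-type QC-marker library 2, wild-type CEI-marker library 4 and wox5-1 CEI-marker library 1 left out, the genotype effects of 3 cyclins differed between the populations in limma's interaction test, which called 14.3% of all tested genes there and 0.0232% with all 13 libraries. The interaction (effect in QC-marker minus effect in CEI-marker cells) was 2.28 for CYCD3;2 (SE 0.40, adjusted p = 0.011), whose effect was 0.33 in QC-marker and -1.95 in CEI-marker cells. It was -2.48 for CYCD4;1 (SE 0.54, adjusted p = 0.0198), from -1.51 in QC-marker and 0.97 in CEI-marker cells. It was 3.46 for CYCD5;1 (SE 0.93, adjusted p = 0.0368), from 1.77 in QC-marker and -1.69 in CEI-marker cells. With all 13 libraries these were 0.97, -1.25 and 2.40 (adjusted p = 0.675, 0.606 and 0.411). Of the 4 groups, 3 then held 2 libraries each, and the choice of libraries was made after their values were seen. For CYCD3;2 the CEI-marker libraries left out were the lowest of the wild type and the highest of the mutant. Wild-type QC-marker library 2 was the lowest of its group for CYCD4;1 and the highest for CYCD5;1.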

How the results depend on the processing

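With all 13 libraries, 0 of the 10 cyclins passed in any of the 5 comparisons. Leaving out 3 libraries gave 1 call in QC-marker cells between genotypes (8.86% of all tested genes called), 3 in CEI-marker cells (21.9%), 5 between populations in wox5-1 (31.8%) and 3 for the interaction (14.3%). Between populations in wox5-1 the count was also 1 with a pseudocount of 5 (5.55% of all tested genes called), 1 with quantile normalization (5.44%), 4 with only the groups compared (26.8%) and 5 with array weights (34.8%). Leaving out each library in turn gave 0 to 1 calls in QC-marker cells between genotypes and 0 to 1 between populations in wox5-1, each time CYCD3;3. Of 691 values for single cyclins, 649 kept their direction and side of the threshold, 26 passed it and 16 changed sign, none of them called. For QC-marker cells between genotypes, quantile normalization gave -0.058 for CYCD2;1, -0.33 for CYCD3;1 and -0.34 for CYCD4;2, array weights gave -0.14 for CYCD2;1 and -0.085 for CYCD3;1, and leaving out 3 libraries gave -0.41, -0.10 and -0.068 for these 3. Without single libraries CYCD2;1 ran from -0.41 to 1.49, CYCD3;1 from -0.10 to 1.503, CYCD4;2 from -0.068 to 1.34 and CYCD4;1 from -1.51 to 0.0072. In CEI-marker cells CYCD7;1 was -0.33 with a pseudocount of 0.1, -0.023 with quantile normalization and between -0.017 and 0.58 without single libraries, and CYCD2;1 was between -0.95 and 0.020. The cause was not tested. The number of all genes called ran from 199 to 1514 in QC-marker and from 1 to 25 in CEI-marker cells between genotypes without single libraries, and from 20 to 345 and 221 to 2520 between populations in the wild type and in wox5-1. Over the other alternatives, the genotype comparison of QC-marker cells called from 227 (replicate block) to 1851 genes (3 libraries left out) against 741 with all 13 libraries, and that of CEI-marker cells from 0 (only the groups compared) to 4574 (3 left out) against 6. Between populations the counts ran from 1 to 700 against 77 in the wild type and from 526 to 7502 against 930 in wox5-1, and for the interaction from 0 to 2979 against 5. In a fit of QC-marker libraries with the replicate number as a block, 0 cyclins and 227 genes were called, against 1009 genes without it. Same-numbered libraries deviated together with r of 0.0315, 0.0897 and -0.0571, so the numbers were not taken to pair them.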
